A study of Mus musculus with 12 samples.

Results

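The Cnr1-gated interneurons of the mouse motor cortex were taken as 172 of 51683 nuclei by counts of named transcripts in each nucleus. A nucleus was taken when it held at least 2 unique molecular identifiers (UMIs, each standing for 1 captured RNA molecule) of Gad1 and Gad2 together, at most 2 of Slc17a7, at least 5 of Cnr1 and at least 1 of Sncg, Col14a1 and Krt73 together. It also had to hold at most 2 UMIs of Vip, 3 of Sst, 1 of Pvalb and 4 of Lamp5, Ndnf and Sv2c together, and to show 500 or more detected genes with mitochondrial UMIs below 5%. These 13 genes chose the nuclei, so their levels are given as a description.

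The nuclei came from the caudal forelimb area of the right primary motor cortex of 6 mice aged 13 weeks, all of them limited to 1 mL of water a day. The 3 trained mice (mice 2, 4 and 6) were head-fixed on days 11 to 13 and pressed a lever with the left paw in sessions of 100 trials, with part of their water as the reward, and the 3 control mice (mice 1, 3 and 5) went on taking their water in the home cage over those days. Training, head fixation, the tone and the reward came together in the trained mice and cannot be told apart here. Each mouse was sequenced in 2 runs that the deposited counts join, so each mouse is 1 replicate, and the sources used here do not give strain or sex.

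Cortical interneurons that contain the neuropeptide cholecystokinin (gene Cck) and carry the cannabinoid receptor CB1 (gene Cnr1) on their axon terminals arise from the caudal ganglionic eminence (CGE), an embryonic source of interneurons. Many of them are basket cells that contact the cell bodies of pyramidal neurons and release GABA. Endocannabinoids made by the contacted neuron act on CB1 and lower that release for a short time. Sncg, the gene of gamma-synuclein, names this class in transcriptomic atlases of the mouse cortex.

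The matrix held between 46798359 and 91495029 UMIs per mouse, and the median nucleus between 5487 and 7599. The gated nuclei were 23, 24 and 25 in trained mice 2, 4 and 6, against 45, 36 and 19 in control mice 1, 3 and 5. They held 2911 to 37327 UMIs each, and their summed UMIs per mouse lay between 172422 and 514886. No gated nucleus shared its barcode sequence with another, although 311 sequences occurred in more than 1 mouse. A doublet caller (Scrublet) marked 6 of the 172.

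The edge of the gate fell at different places in the 2 lines that matter most. Few nuclei lay near the Cnr1 line, with 6 nuclei just outside it at 4 UMIs and 9 just inside at 5 UMIs. Many lay near the line on Sncg, Col14a1 and Krt73, where 128 nuclei had 0 UMIs and stayed out and 53 had 1 UMI and were taken. A further 39 nuclei met every other line but held 3 or more UMIs of Vip.

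The 4 genes that stand for these cells did not carry equal weight. Sncg was detected in 29 of the 172 nuclei and Col14a1, which encodes a fibril-associated collagen, in 138, and 125 nuclei passed on Col14a1 with neither Sncg nor the keratin gene Krt73. The nuclei are therefore called Cnr1-gated here, since most of them showed no Sncg UMI.

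Cnr1 lies on chromosome 4 (33924593 to 33948831, plus strand, build mm10). Levels are given as CPM, the counts of a mouse's summed nuclei scaled to a common total. Cnr1 was at 1484, 1769 and 1430 CPM in trained mice, against 1758, 1392 and 1844 CPM in control mice, and averaged 1613 ± 199 CPM (SD, n = 6). The groups overlapped, and the level was above that of Vip, Lamp5, Sst and Pvalb nuclei, picked by gates of the same kind, in 6 of 6 mice. Those gates averaged 649, 284, 87.7 and 18.6 CPM, and glutamatergic nuclei 47.6 CPM.

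Cck (chromosome 9, 121489824 to 121495694, minus strand) took no part in the gate. Its level was 329, 361 and 398 CPM in trained mice, against 332, 368 and 603 CPM in control mice. Control mouse 5 stood highest, and the mean of 399 ± 103 CPM (SD, n = 6) lay beside 219 CPM in Vip nuclei, 68.3 in Lamp5, 36.5 in Sst and 57.2 in Pvalb nuclei, with the gated nuclei above those 4 gates in 6 of 6 mice. Glutamatergic nuclei, which also use Cck, averaged 159.7 CPM. With every nucleus thinned at random to 2900 UMIs, 57.6% of the gated nuclei kept a Cck UMI (exact 95% interval 49.8% to 65.0%), against 32.5% of Vip and 17.9% of Pvalb nuclei. Before thinning the shares were 81.4% at a median of 9242.5 UMIs, 48.8% at 6264 UMIs and 47.0% at 11101 UMIs.

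Sncg (chromosome 14, 34370274 to 34374789, minus strand) was scarce, with 39 UMIs in all. It was at 21.9, 30.8 and 23.8 CPM in trained mice, against 7.77, 34.6 and 23.2 CPM in control mice, where control mouse 1 was lowest. The mean of 23.7 ± 9.24 CPM (SD, n = 6) compares with 2.67 CPM in Vip nuclei and 0 in the Lamp5, Sst and Pvalb gates. In nuclei thinned to 2900 UMIs, 8.14% of the gated nuclei and 0 of 4963 glutamatergic nuclei held an Sncg UMI, which for the glutamatergic nuclei allows a share of up to 0.0743% (exact 95% bound). Before thinning the shares were 16.9% at a median of 9242.5 UMIs and 0.0201% at 13461 UMIs.

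Col14a1 (chromosome 15, 55307750 to 55520803, plus strand) was at 259, 198 and 285 CPM in trained mice, against 334, 359 and 313 CPM in control mice. The gate asked for this gene in most nuclei, so its mean of 291 ± 57.7 CPM (SD, n = 6) against 30.3 CPM or less in the other interneuron gates describes the choice. The trained mice all lay below the control mice, and in the fit over all genes described further on the difference was at a log2 fold change of -0.40 ± 0.20 (trained over control, standard error), with adjusted p = 0.975 in edgeR's quasi-likelihood test (p-values adjusted over all tested genes by the Benjamini-Hochberg method). The gate used Col14a1, so this difference depends on the choice of nuclei and is a description, not a test of training.

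**Figure D1:**
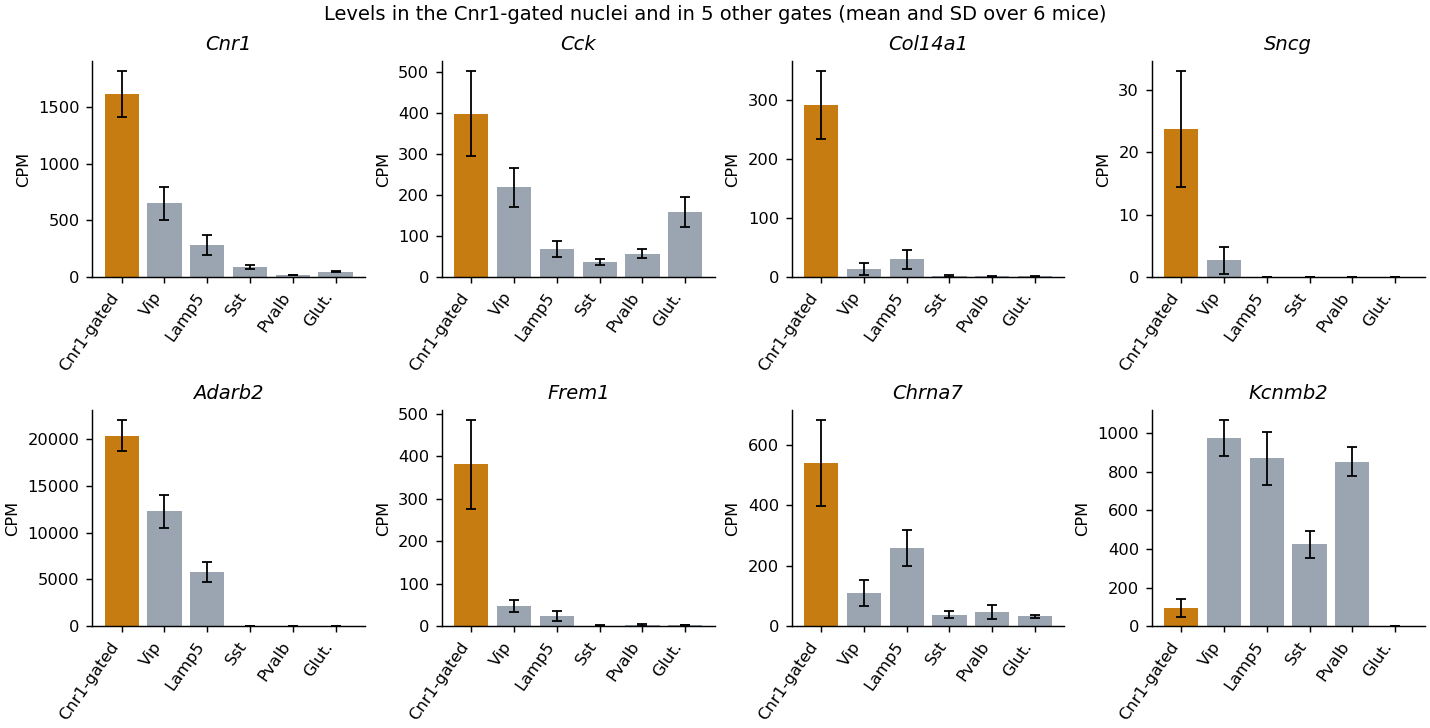
Levels of 8 genes (CPM, linear axes) in the Cnr1-gated nuclei and in Vip, Lamp5, Sst, Pvalb and glutamatergic nuclei. Bars are means and error bars SDs over 6 mice. Cnr1 averaged 1613 CPM in the gated nuclei and 649 CPM in Vip nuclei, Adarb2 was high in the gated nuclei, Vip and Lamp5 and near 0 in Sst and Pvalb, and Kcnmb2 was lowest in the gated nuclei among the interneurons.

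Among genes of CGE origin Adarb2 was high, and genes of the medial ganglionic eminence (MGE), the source of Sst and Pvalb cells, were low. Of the 6 CGE genes listed, 0 were more than 2 times as high as in every other interneuron gate, with 5 CPM added to each level. Adarb2, an RNA-binding protein gene used as the mark of CGE interneurons, averaged 20333 ± 1632 CPM (SD, n = 6), against 12273 in Vip, 5814 in Lamp5, 13.0 in Sst and 14.3 in Pvalb nuclei. The CGE transcription factors Prox1, Nr2f2 and Npas1 averaged 119 ± 37.1, 159 ± 73.4 and 169 ± 58.7 CPM (SD, n = 6). Prox1 was lower than the 275 CPM of Vip nuclei. Lhx6, the transcription factor that MGE interneurons keep, had 1 UMI in all 172 nuclei, at a mean of 0.324 CPM against 88.9 CPM in Sst nuclei. Sox6, which acts with Lhx6 in MGE cells, averaged 17.4 CPM, against 994 CPM in Sst nuclei.

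Over the whole table, 45 of the 4233 genes with at least 20 CPM in each of 6 mice (1.06%) were more than 2 times as high as in any of the 4 other interneuron gates, with 5 CPM added to each level, and 8 (0.189%) were less than 0.5 times as high as in each of them. Groups of nuclei picked by their counts differ by construction, so these ratios carry no test, and the 45 include Cnr1 and Col14a1, which the gate used. The floor of 20 CPM applied to the gated nuclei, so genes scarcer there, such as Grin3a and Dagla, could not be among the 8. After Col14a1, the highest ratios belonged to Frem1, an extracellular matrix protein gene, at 380 ± 104 CPM, and to Pax6, a transcription factor known from eye and forebrain development, at 51.9 ± 18.0 CPM (SD, n = 6 each). Vip nuclei had 48.1 and 4.89 CPM of these genes. Megf10, a receptor gene for the uptake of cell debris, averaged 120.2 ± 62.6 CPM against 18.0 CPM in Vip nuclei. Cadps2, which primes dense-core vesicles for release, stood at 1222 ± 471 CPM against 273 CPM in Vip nuclei, and the transmembrane collagen Col25a1 at 1013 ± 474 CPM against 249 CPM in Sst nuclei.

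Other genes followed in this leading group. Plppr1, a lipid phosphatase-related protein gene, averaged 662 ± 61.0 CPM with the narrowest relative spread of the group, against 166 CPM in Vip nuclei. Inpp4b, a phosphoinositide phosphatase gene, averaged 657 ± 139.9 CPM against 168 CPM in Pvalb nuclei, and the cation channel gene Trpm3 831 ± 337 CPM against 254 CPM in Sst nuclei. Pex5l, which sorts HCN channels, was at 984 ± 145 CPM and above the other interneurons, although glutamatergic nuclei had 1317 CPM. The remaining leading genes were Dpy19l1, Megf11, Yjefn3, Eps8, Plod2, Kctd12, Egln3, Lix1, Syt6 and Cachd1, between 56.5 and 334 CPM. All 20 leading genes were above the other 4 interneuron gates in 6 of 6 mice, apart from Syt6 with 5 of 6.

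Among genes with at least 20 CPM in each mouse of the gated nuclei, the lowest were led by Kcnmb2, an auxiliary subunit that inactivates BK potassium channels. It averaged 94.1 ± 45.7 CPM (SD, n = 6), against 973 in Vip, 869 in Lamp5, 423 in Sst and 852 CPM in Pvalb nuclei. Dpp10, an auxiliary subunit of A-type potassium channels, averaged 323 ± 92.1 CPM against 759 CPM or more in those gates. Mgat4c, a glycosyltransferase gene, was at 222 ± 101 CPM against 3584 CPM in Sst nuclei. The NMDA receptor subunit gene Grin3a, below that floor of 20 CPM, averaged 6.15 CPM, against 1194 CPM in Sst nuclei and 37.4 CPM or more in every other interneuron gate. Plxdc2, Pard3, Tiam1, Esrrg, Specc1, Osbpl3 and Efna5 were also below the 4 gates in 6 of 6 mice.

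In the endocannabinoid list of 17 genes, 1 was more than 2 times as high as in the other interneuron gates (Cnr1 itself) and 1 less than 0.5 times as high. That gene was Dagla, which makes the endocannabinoid 2-arachidonoylglycerol, at 10.9 ± 8.74 CPM (SD, n = 6) against 27.6 to 33.4 CPM in the other interneurons and 69.4 CPM in glutamatergic nuclei. Mgll, which breaks 2-arachidonoylglycerol down, averaged 175 ± 45.5 CPM, between the 135 CPM of Vip and the 285 CPM of Lamp5 nuclei. Sgip1, a partner of CB1 at the terminal, was at 549 ± 49.3 CPM against 521 to 768 CPM elsewhere among interneurons. Cnr2, the gene of the other cannabinoid receptor, had 0 UMIs in the 172 nuclei.

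Among 19 neuropeptide genes none passed a ratio of 2 and 5 had no UMI in the gated nuclei. Npy averaged 276 ± 193 CPM, between 172 CPM in Vip and 1395 CPM in Lamp5 nuclei, and Tac2, the precursor of neurokinin B, 67.4 ± 50.9 CPM against 472 CPM in Vip nuclei. The growth factor gene Igf1 was at 231 ± 53.9 CPM against 656 CPM in Vip nuclei. Penk, the enkephalin precursor, had 0 UMIs here and 193 CPM in Vip nuclei.

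Receptor and channel genes are given by list, beside the 1.06% of all genes past a ratio of 2. That share is over genes with at least 20 CPM in each mouse, a level reached by 10 of 14 GABA receptor genes, 8 of 30 serotonin, acetylcholine and monoamine receptor genes, 21 of 27 potassium channel genes, 17 of 28 release machinery genes and 4 of 10 calcium-binding protein genes. Gabra2, the alpha subunit of GABA-A receptors, averaged 298 ± 47.7 CPM (SD, n = 6) against 123 CPM in Vip nuclei, and was the only member of 14 GABA receptor genes past a ratio of 2. Chrna7, the alpha7 nicotinic acetylcholine receptor, averaged 539 ± 141 CPM against 257 CPM in Lamp5 and 109.9 CPM in Vip nuclei, the only one of its 30 receptor genes past that ratio. Its level was uneven among the clusters described further on, at 282 and 229 CPM in clusters 13 and 23, near the Lamp5 level, and at 1188 and 1234 CPM in clusters 31 and 17. Chrm3, the M3 muscarinic receptor, and Htr2c, a serotonin receptor, were at 1082 ± 120.2 and 217 ± 81.1 CPM, beside 923 and 247 CPM in Vip nuclei. Of 27 potassium channel genes, 1 passed the ratio, namely Kcnh1 at 262 ± 62.7 CPM against 122 CPM in Lamp5 nuclei. Kcnq5, a subunit of the M-current, at 4380 ± 650 CPM, and Kcnip4, a partner of A-type channels, at 14006 ± 2934 CPM, were above the 4 other gates in 6 of 6 mice with means of 2198 and 7796 CPM in Lamp5 nuclei.

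In the release machinery, 3 of 28 genes passed a ratio of 2, namely Cadps2, Sncg and the synaptotagmin gene Syt6 at 71.0 ± 23.4 CPM. Sncg was itself a gate gene and stayed below 20 CPM in control mouse 1. Syt1, the calcium sensor of fast release, averaged 4016 ± 218 CPM against 3779 CPM in Lamp5 nuclei. Of 10 calcium-binding protein genes, 1 passed the ratio, Necab1, at 717 ± 158 CPM against 277 CPM in the nearest other interneuron gate. Slc17a8, which encodes the vesicular glutamate transporter VGLUT3 and marks a known subset of cholecystokinin basket cells, averaged 29.1 ± 21.5 CPM against 1.73 CPM or less in the other interneurons, and was present in 11 of the 172 nuclei. In nuclei thinned to 2900 UMIs, 3.49% of the gated nuclei and 0.181% of glutamatergic nuclei held an Slc17a8 UMI, against 6.40% and 0.765% before thinning.

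Clustering of all 5831 nuclei that met the Gad1, Gad2 and Slc17a7 lines, done without the 13 gate genes, put 154 of the 172 gated nuclei into 4 of 46 clusters. The clusters keep their numbers here. Cluster 13 held 69 gated nuclei of its 190 nuclei, cluster 23 held 30 of 73, cluster 31 held 28 of 43 and cluster 17 held 27 of 148, and the other 18 gated nuclei were spread over 8 clusters. Each of the 4 sets stayed whole, at 100% in 1 cluster, when the resolution was lowered to 1.0 and when the random seed was changed, both tried after seeing the data. Both reruns used the same neighbour graph. The lower resolution gave 32 clusters instead of 46, which left little room for a set to split. No higher resolution was tried, so the reruns do not show how stable the sets are. Since every gene of the clustered nuclei entered or could follow that grouping, the levels by cluster are a description with no test.

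The 4 clusters shared Cnr1 and Adarb2 and differed in most else. Cnr1 was at 1882, 1992, 1420 and 1279 CPM in clusters 13, 23, 31 and 17, and Adarb2 at 23616, 14510.0, 22848 and 19403 CPM. Cck was at 674 CPM in cluster 23 (exact 95% Poisson interval of the summed counts 581 to 777), at 438 in cluster 13, at 217 in cluster 31 and at 178 in cluster 17. Prox1 was at 139, 179, 11.6 and 141 CPM in clusters 13, 23, 31 and 17, which leaves cluster 31 nearly without it. The Poisson intervals cover counting error only.

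Cluster 13 held all 29 nuclei with an Sncg UMI, at 49.6 CPM (interval 35.2 to 67.8), while the counts of 0 in clusters 23, 31 and 17 allow up to 13.2, 14.3 and 16.8 CPM. It also led in Cadps2, at 2527 CPM (2417 to 2640) against 168 CPM or less in the other 3, and in Col25a1, at 2126 CPM against 173 CPM or less. Kcnc2, a Kv3 potassium channel gene for fast repolarisation, was at 560.5 CPM there and at 89.6, 15.5 and 150.2 CPM in clusters 23, 31 and 17. Of the 11 nuclei with Slc17a8, 10 lay in cluster 13, at 67.4 CPM.

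The 10 nuclei with at least 2 UMIs of Slc17a8 stood apart from the 161 with none in genes other than Cck, but 9 of the 10 and 59 of the 161 lay in cluster 13. Cck was at 390 CPM (303 to 494) in the Slc17a8 nuclei and at 378 CPM (349 to 410) in those without. Col25a1 was at 3556 CPM against 707 CPM, and Kctd12, an auxiliary subunit of GABA-B receptors, at 304 CPM against 35.9 CPM. By mouse, Col25a1 in the Slc17a8 nuclei ranged from 0 CPM in control mouse 5 to 5974 CPM in trained mouse 4. Kctd12 ranged from 0 CPM in control mouse 5 to 477 CPM in control mouse 3. The highest Col25a1 count in 1 gated nucleus was 223 UMIs, beside 620 in all 10 Slc17a8 nuclei. The split used raw UMIs, so deeper nuclei could pass it more easily. Cluster 13 as a whole had 2126 CPM of Col25a1 and 116 CPM of Kctd12, and the part of cluster membership in these differences was not tested. Prox1 had 0 UMIs in the Slc17a8 nuclei, which allows up to 21.2 CPM, against 137 CPM in those without. The nuclei were drawn from the same 6 mice, and these intervals cover counting error only.

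Cluster 23 was high in the transcription factor gene Pbx3, at 1562 CPM (1419 to 1716) against 515 CPM or less in the other 3, and in Enpp2, which makes lysophosphatidic acid, at 1064 CPM (946 to 1192) against 119.9 CPM or less. The cell adhesion gene Cntn4 was at 7846 CPM there against 469 CPM or less. Htr1f, the serotonin 1F receptor gene, was at 509 CPM (429 to 600) against 36.4 CPM or less. Reln, the gene of the secreted protein reelin, had a single UMI in cluster 23.

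Cluster 31 led in Npsr1, the neuropeptide S receptor gene, at 186 CPM (137 to 246) against 13.7 CPM or less, and in Pax6, at 174 CPM against 39.4 CPM or less. The A-type potassium channel gene Kcnd2 was at 4132 CPM (3888 to 4388) against 1644 CPM or less, and Pex5l at 3041 CPM against 1170.0 CPM or less. Cluster 17 led in Reln, at 2149 CPM (1959 to 2352) against 762 CPM or less, and in the relaxin receptor gene Rxfp1, at 496 CPM (407 to 599) against 96.6 CPM or less. Its leading genes among all GABAergic clusters included Ndst4, Cxcl14 and Chrna7, and 18 nuclei of the Lamp5 gate lay in it. Vip-gate nuclei numbered 49 in cluster 13 and 25 in cluster 23.

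**Figure D2:**
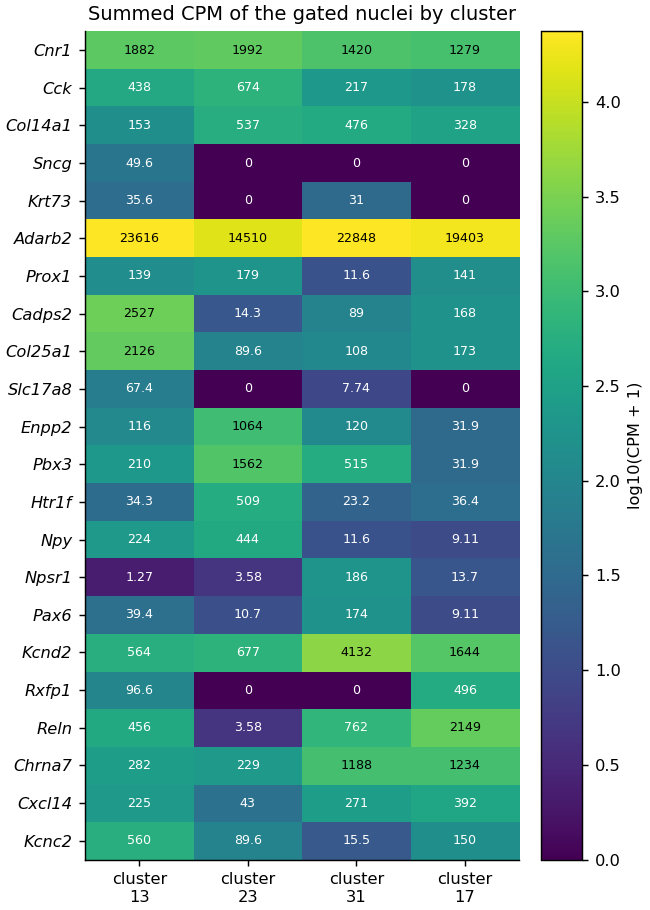
Summed CPM of 22 genes (rows) in the gated nuclei of clusters 13, 23, 31 and 17 (columns). Colour is log10(CPM + 1), printed numbers are CPM, and a reader sees Cnr1 and Adarb2 high in all 4 columns, Sncg at 49.6 CPM in cluster 13 and 0 in the others, and separate blocks for Cadps2, Enpp2, Npsr1 and Reln.

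The 128 nuclei kept out only for want of Sncg, Col14a1 or Krt73 fell into the same clusters, 60 of them in cluster 13, 29 in cluster 17, 7 in cluster 23 and 2 in cluster 31. Of the 39 kept out for Vip, 20 were in cluster 13 and 12 in cluster 23. Among the 18 gated nuclei outside the 4 main clusters, 10 lay in clusters with a marker of glutamatergic or non-neuronal cells among their leading genes, and all 6 Scrublet doublets were among the 18. These 10 nuclei were 0, 0 and 2 in trained mice, against 3, 4 and 1 in control mice.

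Training was set against control over mice, beginning with the number of nuclei. The gated nuclei made up 0.324%, 0.277% and 0.450% of all nuclei in trained mice, against 0.443%, 0.287% and 0.247% in control mice, so the groups overlapped. Means were 0.351 ± 0.0894% in trained and 0.326 ± 0.104% in control mice (SD, n = 3 each), with p = 0.7 in a two-sided exact permutation test that cannot give a p below 0.1 for 3 mice against 3. As a share of GABAergic nuclei they were 2.83 ± 0.429% in trained and 2.99 ± 0.707% in control mice (exact permutation p = 0.8). The median gated nucleus held 9989 ± 1466 UMIs in trained and 9333 ± 1540 UMIs in control mice (exact permutation p = 0.7), and all 3 adjusted p-values were 0.8. Thinned to 3000 UMIs before gating, 6, 8 and 4 nuclei passed in trained mice, against 10, 5 and 6 in control mice.

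The mix of clusters also overlapped between the groups. Cluster 13 took 9, 14 and 10 of the gated nuclei in trained mice, against 20, 9 and 7 in control mice, or 45.8 ± 10.8% against 35.4 ± 9.80% (SD, n = 3 each, exact permutation p = 0.4). Cluster 23 took 2, 1 and 6 in trained mice, against 9, 9 and 3 in control mice, or 12.3 ± 10.4% against 20.3 ± 4.61% (exact permutation p = 0.3). Clusters 31 and 17 took 18.3 ± 7.18% and 16.8 ± 4.87% in trained mice, against 17.9 ± 11.8% and 14.6 ± 6.59% in control mice (exact permutation p = 0.8 and 0.6). Adjusted over the 4 clusters, each p was 0.8, with 1 to 20 nuclei per cluster and mouse.

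**Figure D3:**
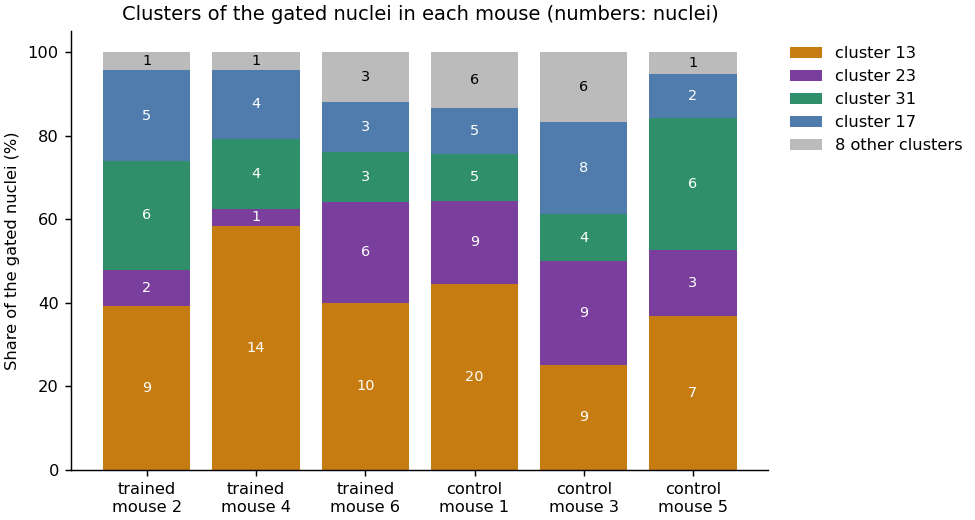
Share of the gated nuclei (%) in clusters 13, 23, 31, 17 and 8 other clusters, 1 stacked bar per mouse with the trained mice on the left and the control mice on the right, and the number of nuclei printed in each block. Cluster 13 takes 45.8% on average in the trained and 35.4% in the control mice, and cluster 23 takes 12.3% and 20.3%, with overlapping mice in both cases.

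The summed counts of the gated nuclei gave no gene past the threshold between trained and control mice. Of 4302 genes tested, 0 had an adjusted p under 0.05 by edgeR's quasi-likelihood test, and 187 (4.35%) had an unadjusted p under 0.05, of which 95 (2.21%) were higher and 92 (2.14%) lower. DESeq2 also called 0 genes, with 66 (1.53%) at an unadjusted p under 0.05. The groups did not overlap for 429 genes (9.97%), the trained mice lying above all control mice for 217 (5.04%) and below them for 212 (4.93%). The values below are therefore measurements of named genes, none of which passed the test. Without a filter on low counts, 24 of 17149 genes passed (0.14%), with 3.75% at an unadjusted p under 0.05, and without control mouse 5, 2 genes passed, Gpc5 among them (0.0391% of 5110 genes), with 3.72% at an unadjusted p under 0.05. CPM values in this comparison are scaled by edgeR's TMM factors over the tested genes and so differ from the plain CPM above.

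Among the higher genes that the rule could name (no overlap, predicted and gate genes left out), Kcnc2 (chromosome 10, 112271121 to 112467024, plus strand) had the smallest p. Its level was 483, 691 and 416 CPM in trained mice, against 323, 252 and 242 CPM in control mice. It was detected in 78 of the 172 nuclei, 1 of which held 66 UMIs, beside 38 to 144 UMIs per mouse. Every trained mouse lay above every control mouse, with a log2 fold change of 0.93 ± 0.22 (trained over control, standard error; adjusted p = 0.778 by edgeR's quasi-likelihood test). Grm8, a presynaptic metabotropic glutamate receptor gene, was at 79.7, 156 and 121 CPM in trained mice, against 31.4, 76.9 and 50.8 CPM in control mice (log2 1.22 ± 0.35, adjusted p = 0.939 by the same edgeR test), with no overlap. Col19a1, a collagen gene, was at 523, 828 and 710.4 CPM in trained mice, against 464, 461 and 242 CPM in control mice. It was detected in 108 nuclei, 1 of which held 71 UMIs, beside 38 to 207 UMIs per mouse. Socs5, a suppressor of cytokine signalling, had narrow groups, with a mean of 146 ± 6.54 CPM in trained and 81.6 ± 10.1 CPM in control mice (SD, n = 3 each). Acer3, Kif26b, Adgra1, Serpine2, Cyb5b and Plekha5 completed the 10 named by the rule, with log2 fold changes between 0.73 and 1.38. In control mouse 5, Kif26b rested on 2 UMIs, and Serpine2 and Cyb5b on 4 UMIs each.

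Among genes lower in trained mice, Htr1f (chromosome 16, 64924729 to 65105854, minus strand) was at 109.5, 45.4 and 104 CPM, against 273, 203 and 127 CPM in control mice. It was detected in 68 nuclei, 1 of which held 28 UMIs, beside 9 to 122 UMIs per mouse. The groups did not overlap, and the log2 fold change was -1.26 ± 0.31 (adjusted p = 0.778 by edgeR's quasi-likelihood test). Rora, a nuclear receptor gene, was at 309, 303 and 527 CPM in trained mice, against 614, 916 and 591 CPM in control mice (log2 -0.88 ± 0.24). The zinc finger gene Zbtb20 was at 348, 222 and 457 CPM in trained mice, against 616, 737 and 470.3 CPM in control mice, where trained mouse 6 and control mouse 5 nearly met. Sox2, a transcription factor gene of neural progenitors and glia, was at 24.9, 20.2 and 24.3 CPM in trained mice, against 51.5, 59.4 and 69.9 CPM in control mice. Those levels rested on 5, 4 and 7 UMIs in trained mice, against 23, 17 and 11 in control mice. Cdh20, Trps1, Rab40c, Nfix, Nub1 and Htra1 were the others named, with log2 fold changes between -1.46 and -0.80. Cdh20 had 5, 6 and 5 UMIs in trained mice, against 23, 18 and 15 in control mice.

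**Figure D4:**
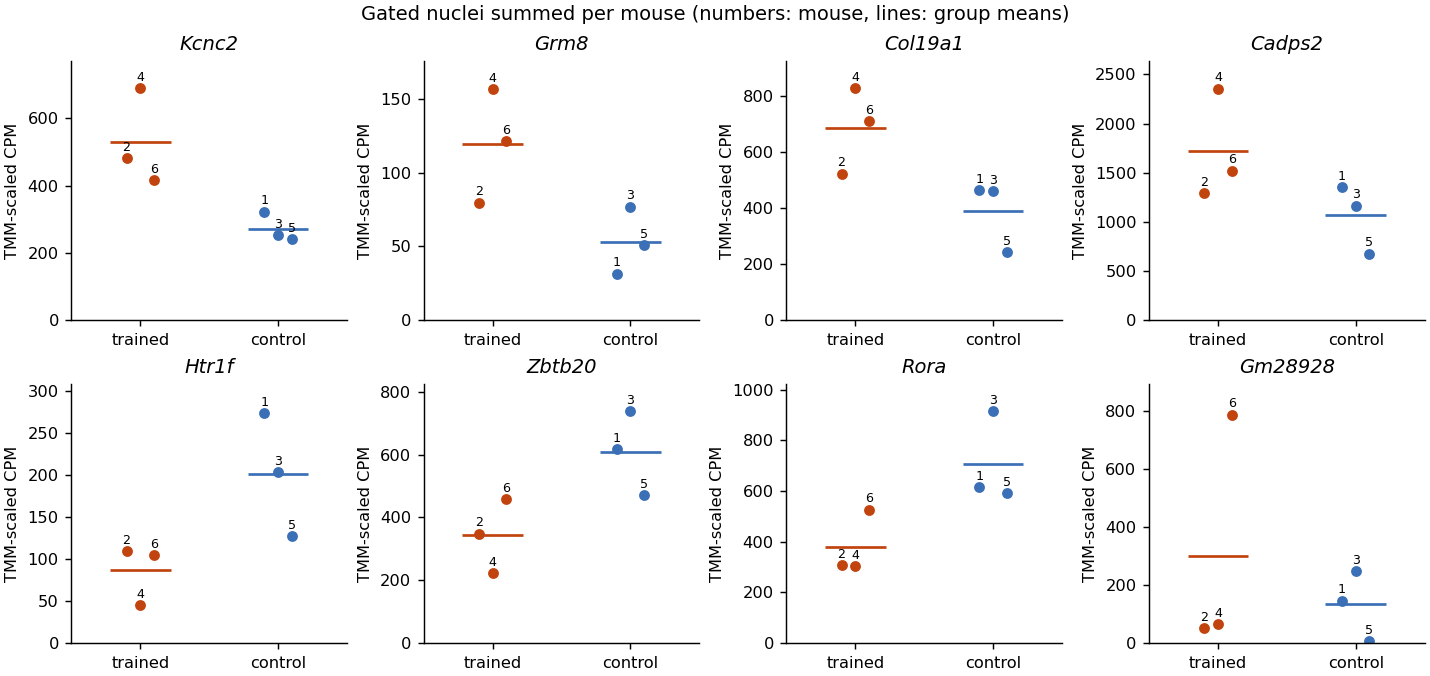
TMM-scaled CPM (linear axes) of 8 genes in the summed gated nuclei of each mouse, trained mice left and control mice right in each panel. Points are mice with their numbers and lines are group means. Kcnc2, Grm8 and Col19a1 lie higher in all trained mice and Htr1f, Zbtb20 and Rora lower, none past the adjusted threshold, and Gm28928 is at 787 CPM in trained mouse 6 and at 248 CPM or less in the other 5 mice.

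The named genes were unevenly spread over the clusters. Of the 10 higher genes, 8 had their highest level in cluster 13, where 17.2% of all tested genes do. Of the 10 lower genes, 0 had it there, 5 had their lowest level in cluster 13 (25.6% of all tested genes do) and 5 their highest in cluster 23 (31.3% do). Cluster 13 made up a larger and cluster 23 a smaller mean share of the gated nuclei in the trained mice, as given above, and the part of the cluster mix in these differences was not tested beyond the values within cluster 13.

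Within cluster 13 alone, 1946 genes could be tested, 0 passed the threshold, and 75 (3.85%) had an unadjusted p under 0.05. These nuclei are part of the sums that chose the named genes, so the direction of those genes there was largely fixed by the choice and their values are a description. Of the 10 higher genes 9 had enough counts. Grm8 was at a log2 fold change of 1.56 ± 0.47, Serpine2 at 1.27 ± 0.36, Acer3 at 1.12 ± 0.45, Kcnc2 at 0.76 ± 0.30 and Plekha5 at 0.59 ± 0.27. Socs5, Kif26b, Adgra1 and Col19a1 were smaller than over all gated nuclei by more than 1.5 times. Of the 10 lower genes 2 could be tested there, Rora at -0.56 ± 0.41 and Zbtb20 at -0.34 ± 0.26, both smaller by more than 1.5 times, and Htr1f was too scarce to test.

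Summed markers of other cell types differed between mice, and those of oligodendrocytes and microglia were lower in every trained than in every control mouse. Among single tested genes 9.97% did not overlap between the groups, and the sums carry no test. The 6 astrocyte markers summed to 145, 141 and 89.2 CPM in trained mice, against 289, 450.3 and 98.6 CPM in control mice, with Gfap at 0. The 5 oligodendrocyte markers summed to 26.3, 17.6 and 20.8 CPM in trained mice, against 85.5, 44.1 and 307 CPM in control mice. Glutamatergic markers (8 genes) ranged from 202 to 473 CPM in trained and from 256 to 331 CPM in control mice, microglia markers (5 genes, Tmem119 at 0) from 13.2 to 48.3 and from 52.2 to 81.9 CPM, and of 5 vascular markers 4 were at 0. Oligodendrocyte precursor markers (3 genes) overlapped, at 17.6 to 48.4 CPM in trained and 31.5 to 64.1 CPM in control mice. The microglia and precursor sums rest on few UMIs per mouse. The part of these transcripts in the lower genes was not tested beyond leaving out the 10 nuclei in mixed clusters. Slc1a2, the astrocyte glutamate transporter gene, was at a log2 fold change of -1.02 ± 0.34 over all gated nuclei and at 0.35 without those 10 nuclei, while the 20 genes named above kept their direction except Cdh20, which had too few counts to test. Trps1 and Htra1 were then at -0.53 and -0.47, smaller by more than 1.5 times, and Sox2, which glia also use, at -1.18. The nuclei that remained were part of the sums that chose these 20 genes, so their direction was largely fixed by the choice.

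Gene lists are given beside the whole table. All 4302 tested genes had a median log2 fold change of 0.0027, with 2163 higher and 2139 lower. Of 22 tested potassium channel genes 15 were higher and 7 lower (median 0.14), and those at an unadjusted p under 0.05 were Kcnc2, Kcnd3 at 0.41 ± 0.19 and Kcnd2 at -0.42 ± 0.19. Within cluster 13 alone Kcnd2 was at 0.0306, and its level was highest in cluster 31, as given above. Of 18 tested release machinery genes 14 were higher and 4 lower (median 0.15), with Cadps2 at 0.68 ± 0.25, Sncb, the beta-synuclein gene, at 0.63 ± 0.28 and the vesicle-priming gene Unc13a at 0.59 ± 0.25. The groups overlapped for Cadps2 and Sncb. Cadps2 was at 0.39 without trained mouse 4 and at 0.0263 within cluster 13 alone, where 1988 of its 2209 UMIs lay, and Unc13a was at 0.39 without trained mouse 2. Of 11 GABA receptor genes 3 were higher and 8 lower (median -0.09) and 0 reached an unadjusted p under 0.05.

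The endocannabinoid list had 8 tested genes, 2 higher and 6 lower (median -0.04), with 0 at an unadjusted p under 0.05. Cnr1 itself was at 1683, 2029 and 1667 CPM in trained mice, against 2028, 1545 and 2021 CPM in control mice (log2 -0.06 ± 0.17). The gate used Cnr1, so these values of Cnr1 are a description. Cck was at 373, 414 and 464 CPM in trained mice, against 383, 409 and 661 CPM in control mice (log2 -0.18 ± 0.22). The groups overlapped for both genes.

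Receptor genes at an unadjusted p under 0.05 were Hcrtr2, the orexin receptor gene, at -0.71 ± 0.32, Chrna7 at -0.44 ± 0.20 and Htr1f and Grm8 as above. The calcium channel subunit gene Cacna2d3 was at 0.43 ± 0.19, at 0.26 without control mouse 3 and at -0.15 within cluster 13 alone. Chrna7 was at -0.28 without control mouse 5 and at -0.0064 within cluster 13 alone. Of 7 tested genes of the glucocorticoid response 3 were higher and 4 lower, and Fkbp5, a chaperone gene induced by glucocorticoids, was at 115, 131 and 139 CPM in trained mice, against 112, 66.4 and 63.6 CPM in control mice (log2 0.59 ± 0.27). The other lists had 19 tested glutamate receptor and transporter genes (10 higher, 9 lower, median 0.13), 13 calcium, sodium and HCN channel genes (6 higher, 7 lower, median -0.04), 6 delayed activity genes (4 higher, 2 lower) and 5 neuropeptide genes (3 higher, 2 lower). Both tested mitochondrially encoded genes were higher, and the 13 such genes summed to 540.0, 185 and 249.7 CPM in trained mice, against 332, 129 and 157 CPM in control mice, which overlapped.

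Of 24 immediate early genes, which respond to neuronal activity within minutes, only 3 had enough counts to be tested. Egr1 was at 14.9, 60.6 and 48.5 CPM in trained mice, against 11.2, 28.0 and 50.8 CPM in control mice (log2 0.75 ± 0.57). Junb was at 19.9, 45.4 and 58.9 CPM in trained mice, against 13.4, 24.5 and 69.9 CPM in control mice (0.58 ± 0.56). Nr4a1 was at 39.8, 30.3 and 86.6 CPM in trained mice, against 17.9, 69.9 and 121 CPM in control mice (-0.07 ± 0.54). The groups overlapped for all 3, which rested on 3 to 25 UMIs per gene and mouse.

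Gm28928, a long noncoding RNA gene on chromosome 1 (124505757 to 124846039, minus strand), rested on few nuclei. It was at 49.8, 65.6 and 787 CPM in trained mice, against 146, 248 and 6.36 CPM in control mice, a log2 fold change of 1.13 ± 0.71 (unadjusted p = 0.132, adjusted p = 0.975 by edgeR's quasi-likelihood test). Of its 387 UMIs, 330 lay in 5 nuclei, which held 95, 82, 64, 52 and 37, and 4 of these 5 were in cluster 20, which Gm28928 itself led. Without trained mouse 6 the log2 fold change was -1.34. Without the nuclei in mixed clusters, cluster 20 among them, it was 3.08 ± 0.69 (adjusted p = 0.323, edgeR), where the nucleus with 95 UMIs, from trained mouse 6 and in cluster 13, remained.

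The difference between trained and control mice was then set against that in Vip and in Lamp5 nuclei of the same mice, as an interaction with mouse as a block. Of 8315 genes tested against Vip nuclei 0 passed the threshold and 384 (4.62%) had an unadjusted p under 0.05. Of 6454 tested against Lamp5 nuclei 0 passed and 337 (5.22%) had an unadjusted p under 0.05. Grm8 had the smallest p in both, with its log2 fold change 1.50 ± 0.34 above that in Vip nuclei (adjusted p = 0.633) and 2.01 ± 0.38 above that in Lamp5 nuclei (adjusted p = 0.0949, edgeR's quasi-likelihood test). In Lamp5 nuclei Grm8 was at plain CPM values of 91.4, 89.2 and 85.2 in trained mice, against 151, 153 and 161 in control mice. Every trained mouse thus lay below every control mouse there, while in the gated nuclei every trained mouse lay above. In the gated nuclei trained mouse 2 and control mouse 3 nearly met, at plain CPM values of 70.2 and 69.3. Of all genes tested in the gated nuclei 9.97% did not overlap, and the share in Lamp5 nuclei is not given here.

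Htr1f and Kcnc2 followed in the comparison with Lamp5 nuclei. The log2 fold change of Htr1f was 1.58 ± 0.31 lower in the gated than in the Lamp5 nuclei, as a difference of -1.58 with adjusted p = 0.0949 by edgeR, and that of Kcnc2 was 1.35 ± 0.28 higher (adjusted p = 0.160). Adcy2, an adenylyl cyclase gene, was also higher by 1.93 ± 0.45, while Tac2 was at -5.22 ± 1.16 with 0 UMIs in the Lamp5 nuclei of all 3 control mice, and Atp8b1, a lipid flippase gene, at -3.32 ± 0.77. In the gated nuclei Atp8b1 was scarce, at 4.39, 4.40 and 2.97 plain CPM in trained mice, against 11.7, 28.3 and 17.4 in control mice. It had too few counts to be tested in the gated nuclei alone. Against Vip nuclei, Kcnc2 was higher by 1.09 ± 0.26 and Lhfpl3 by 1.00 ± 0.23, and Vwc2l, Hs3st4 and Apoe were at -1.83 ± 0.44, -2.18 ± 0.55 and -2.43 ± 0.63 (adjusted p = 0.633 for each, edgeR). Apoe, the lipid carrier gene of astrocytes, had too few counts to be tested in the gated nuclei alone.

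These interactions depended on a few nuclei and mice. Without the nuclei in mixed clusters, an alternative chosen after seeing the data, 4 genes passed against Lamp5 nuclei, namely Gm28928 (3.10 ± 0.53, adjusted p = 0.0124, with the nucleus of trained mouse 6 that held 95 UMIs still in), Grm8 (2.14 ± 0.41, adjusted p = 0.0146), Kcnc2 (1.46 ± 0.27, adjusted p = 0.0146) and Htr1f (-1.70 ± 0.31, adjusted p = 0.0146, all by edgeR). In the same setting 1 gene passed against Vip nuclei, Grm8, at 2.09 ± 0.38 with adjusted p = 0.0437 by edgeR. Leaving out single mice gave 0 to 11 genes against Lamp5 nuclei, with 11 without trained mouse 2, 4 without trained mouse 6 and 2 without control mouse 3.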

How the data were processed

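The authors deposited 1 matrix of UMI counts per gene and nucleus, made with Cell Ranger 4.0.0 on mm10 according to the submitters' processing notes. The treatment of intronic reads is not given in the sources used here. Gene positions came from GENCODE M21. Vip, Lamp5, Sst, Pvalb and glutamatergic nuclei were picked by like gates. Counts were summed per mouse and tested with edgeR 4.0.16 (R 4.3.3; quasi-likelihood, TMM, filterByExpr, Benjamini-Hochberg at 0.05), with DESeq2 1.42.0 as the other tool. Python 3.11.15 with scanpy 1.11.5 ran Scrublet per mouse (doublets stayed in, and were left out as an alternative) and Leiden clustering (leidenalg 0.10.2, resolution 2.0, 2000 variable genes, 30 components, 15 neighbours, 86 genes left out: the gate genes and the activity, glucocorticoid and mitochondrial lists). The fits were tested on simulated data. Per the labels, replicates are separate mice. Binomial and Poisson intervals cover counting error only. The nuclei, gene lists and tests were chosen with earlier results of these data known. Named genes were the 20 highest and 10 lowest by ratio to the other interneuron gates (at least 20 CPM in each mouse), the 4 most abundant members of each list and those beyond ratios of 2 or 0.5, the 10 genes of smallest p each way whose groups did not overlap (predicted genes left out), list members with p under 0.05, the 3 of smallest p each way per interaction, and Gm28928. Cnr2, Penk and the genes compared between clusters were named after their values were seen. Some genes are not reported here.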

Additional observations from a re-analysis of the deposited data

How the results depend on the processing

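No paired analysis was possible because the groups share no replicate numbers. The share of all nuclei (trained minus control 0.0249 percentage points) became -0.0160 with at least 2 UMIs of Sncg, Col14a1 and Krt73 together and ranged from -0.0249 to 0.0835 without 1 mouse, below 0 without trained mouse 6 and without control mouse 5. The share of GABAergic nuclei (-0.157) became 0.0913 with nuclei thinned to 3000 UMIs and ranged from -0.525 to 0.180 without 1 mouse, above 0 without trained mouse 4 and without control mouse 1. The median UMIs (656.5) ranged from -40.4 to 1512, below 0 without trained mouse 6. None of these passed a test, and the cause was not tested. Between trained and control mice 0 genes passed, and without 1 mouse 0 to 2, with 2, Gpc5 among them, without control mouse 5 (0.0391% of 5110 genes). Without a filter on low counts 24 of 17149 genes passed (0.14%), 7 higher and 17 lower. Of the 24, 12 were in the filtered table and 3 were glial list markers. Gpc5 had 7, 4 and 3 UMIs in trained mice, against 106, 128 and 6 in control mice, and 204 of its 254 UMIs lay in the 4 gated nuclei of cluster 34. Interactions without that filter passed 7 genes against Vip and 10 against Lamp5 nuclei. Without 1 mouse, 0 to 1 passed against Vip and 0 to 11 against Lamp5 nuclei. Without the nuclei in mixed clusters, 1 and 4 passed. That setting and the one of cluster 13 alone were chosen after seeing the data. Of 500 values of 31 named genes under the alternatives, 491 kept direction and side of the threshold and 5 moved past it (Kcnc2, Htr1f, Rora, Slc1a2 and Gm28928 without the filter). The 4 that reversed were Slc1a2 at 0.35 without mixed clusters, Cacna2d3 at -0.15 and Kcnd2 at 0.0306 in cluster 13 alone, and Gm28928 at -1.34 without trained mouse 6 (-1.34 to 1.73 without 1 mouse). All of the 31 but Gm28928 were picked by p from the same sums, so keeping direction was largely fixed by that choice.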
